A study of Mus musculus with 12 samples.

Results

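The chemokine system of white adipose tissue was examined in mice kept in the cold. Its members were the genes whose single symbol on the array began with Ccl, Ccr, Cxcl, Cxcr or Ackr followed by a number, together with Cx3cl1, Cx3cr1, Xcl1 and Xcr1. There were 53 such genes of 18193 on the array, 33 ligands, 16 receptors and 4 atypical receptors, and 38 of them were bright enough to test. Tissue came from male C57/BL6 mice aged 6 to 8 weeks and was hybridised to 12 Affymetrix arrays, 3 in each of 4 groups. The groups were cold for 1 week (4 °C), control for 1 week, cold for 5 weeks (4 °C) and control for 5 weeks. Per the labels, all mice had been maintained at 22 °C and those moved to the cold were first adapted to 18 °C for 1 to 3 weeks. The labels give the controls' temperature both as 30 °C and as room temperature. The fat depot is not named, and neither is whether the arrays of 1 group hold tissue of different mice. The p-values then measure array-to-array spread, which could be technical.

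Chemokines are small secreted proteins that guide leukocytes, and they are grouped by the spacing of their first cysteines into CC, CXC, C and CX3C ligands. They act on membrane receptors that couple to inhibitory G proteins, while the atypical receptors (Ackr genes) bind chemokines without that coupling and take them up. In fat they are made by resident macrophages, stromal cells, endothelium and adipocytes, and lymph nodes embedded in some fat depots make those that place T and B cells.

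Values are the authors' log2 signals made with GCRMA, and a difference is the mean of the cold arrays minus the mean of the control arrays with its standard error (SE). A gene was called at a Benjamini-Hochberg adjusted p under 0.05 in a limma fit over all 12855 tested genes, with 3 arrays in each group. Signals of different genes were not set against each other, since each probe set has its own response. The white adipocyte markers were present: Adipoq, the adiponectin gene, had a mean of 14.79 in the 5 week controls, and 11 of 12 listed markers were tested. Array medians lay between 4.79 and 4.89. RNA quality was followed through the Gapdh controls. Their 3' minus 5' log2 signal was -0.08 to 0.34 in 1 week cold and 0.90 to 3.12 in 1 week control. It was 0.19 to 3.01 in 5 week cold against -0.08 to 0.03 in 5 week control. Cold and control did not overlap in it at either time. The arrays called control_1wk 2, control_1wk 3 and cold_5wk 3 reached 3.00, 3.12 and 3.01. The same measure for Actb was 1.84 to 2.80 in 5 week cold against 1.04 to 1.16 in 5 week control, without overlap, and 1.01 to 1.33 in 1 week cold against 1.22 to 1.35 in 1 week control.

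Far more of these genes were lower in the cold than higher. At 1 week 17 of the 38 fell and 3 rose, where 49.5% of all tested genes were called, 31.6% lower and 17.9% higher. At 5 weeks again 17 fell and 3 rose, where 36.2% of all tested genes were called, 21.2% lower and 15% higher. With the Actb value of each array in the fit, chosen after seeing the data, 20 of the 20 calls were kept at 1 week, but 3 of 20 at 5 weeks (Ccl8, Cxcl12 and Ccr7), all 20 with the same direction. The median difference of the 38 was -0.38 at 1 week and -0.36 at 5 weeks, and that of all tested genes was -0.08 and -0.03. With each array centred on its median, the median of all genes moved to 0.14 and 0.13 and that of the 38 to -0.16 and -0.20, and the calls became 13 lower and 5 higher at 1 week and 17 lower and 6 higher at 5 weeks, that is 47.4% and 60.5% of the members, against 56.1% and 41.7% of all tested genes. The genes that fell at both times made up 82.4% of the falls at each time, a share not computed over all tested genes. A total of 14 genes fell at both times. These were Ccl5, Ccl6, Ccl8, Ccl11, Ccl12, Ccl22, Ccl24, Cxcl12, Cxcl13, Cxcl16, Ccr7, Cxcr3, Cxcr5 and Cxcr6. The only gene that rose at both times was Ccl27a, and none was called in opposite directions. In bulk tissue fewer cells of a type and less RNA per cell cannot be told apart.

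**Figure D1:**
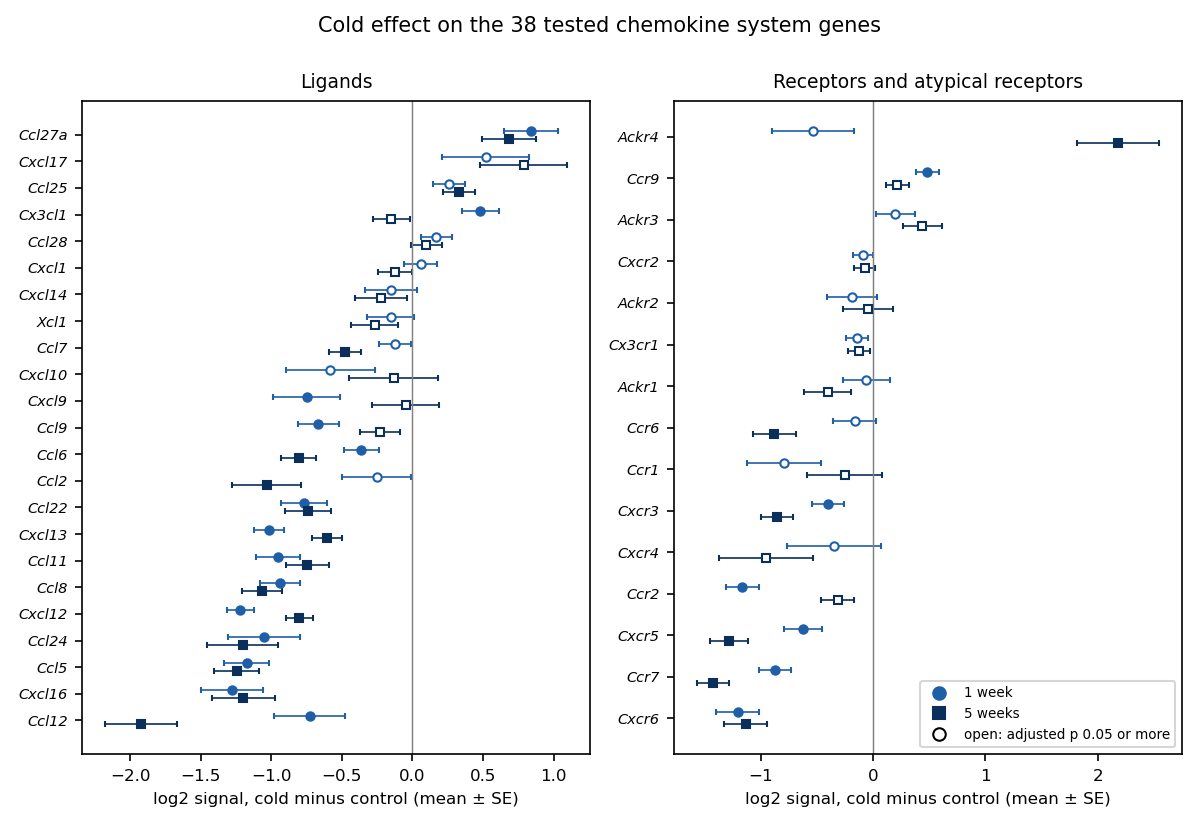
Difference in log2 signal, cold minus control, for the 23 tested ligands and the 15 tested receptors and atypical receptors (points, fitted value; bars, SE; n = 3 arrays per group; circles, 1 week; squares, 5 weeks; filled, adjusted p under 0.05). Most filled points lie left of 0, and Ackr4 at 5 weeks (2.18) lies farthest to the right.

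By family, 8 of 13 tested CC ligands fell at 1 week and 9 at 5 weeks, while 1 and 2 rose. Of 8 CXC ligands 4 and 3 fell and none rose. Of 5 CC receptors 2 fell at each time and 1 rose at 1 week, and of 5 CXC receptors 3 fell at each time. Of the 4 atypical receptors 1 rose, at 5 weeks, and none fell. Against these, 31.6% of all tested genes fell and 17.9% rose at 1 week, and 21.2% fell and 15% rose at 5 weeks. Some of the family counts lie near those shares. The 3 arrays of cold lay entirely below the 3 of control for 17 of the 38 genes at 1 week and 21 at 5 weeks, against 33.7% and 30.7% of all tested genes, and entirely above for 4 and 6, against 26% and 28.3%.

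The monocyte attractants come first. Ccl2, Ccl7, Ccl11, Ccl12 and Ccl8 lie next to each other on chromosome 11 in RefSeq GRCm38.p6 and, with Ccl1, form one gene cluster. All 5 tested genes of it fell at 5 weeks and 3 of them fell at 1 week. Ccl12, a mouse attractant of monocytes through Ccr2, gave 6.12, 5.69 and 5.66 in 1 week cold and 6.16, 6.44 and 7.05 in 1 week control. At 5 weeks it gave 5.26, 5.70 and 4.76 in cold against 7.20, 7.06 and 7.24 in control, a 3.79-fold lower signal (log2 -1.92, SE 0.25, adjusted p = 0.000192, limma), and -1.16 (adjusted p = 0.176) with the Actb value in the fit. The 5 week groups were separated by more than 1 log2 unit at every array. The 1 week fall was smaller (log2 -0.73, SE 0.25, adjusted p = 0.0325) and 4 of the 6 fits that left out 1 array ended its call (log2 -0.92 to -0.48 over the 6). The difference between the cold effects of the 2 times was -1.20 (SE 0.36, adjusted p = 0.0385).

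Ccl2, the best known attractant of monocytes, had 6.63, 6.71 and 6.73 in 1 week cold and 6.76, 6.69 and 7.38 in 1 week control, where the groups overlapped and the gene was not called (-0.25, adjusted p = 0.401). It had 6.52, 5.80 and 5.43 in 5 week cold against 6.84, 7.02 and 6.98 in 5 week control and fell by 1.03 (SE 0.24, adjusted p = 0.00675), with -0.26 (adjusted p = 0.775) when the Actb value was in the fit. Its cold arrays were uneven, with 2 of them well below the other. Ccl7, another Ccr2 ligand, had 4.95, 4.94 and 5.03 in 5 week cold and 5.35, 5.48 and 5.51 in 5 week control and fell by 0.48 (adjusted p = 0.00693). At 1 week its values were 5.04, 5.35 and 4.95 in cold against 5.11, 5.22 and 5.39 in control, with overlap and no call (-0.13, adjusted p = 0.369). The test of the difference between times did not pass for either gene (Ccl2 -0.78, adjusted p = 0.131, and Ccl7 -0.35, adjusted p = 0.141).

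Ccl8, which in mice draws in cells with Ccr8, changed by about the same amount at both times. Its signals were 10.20, 9.90 and 9.77 in 1 week cold and 10.56, 11.01 and 11.11 in 1 week control (-0.94, SE 0.14, adjusted p = 0.000325). They were 10.39, 10.42 and 10.41 in 5 week cold and 11.45, 11.45 and 11.52 in 5 week control (-1.06, SE 0.14, adjusted p = 0.000218). No cold array reached a control array of its time. Ccl11, or eotaxin, an attractant of eosinophils, had 9.86, 9.72 and 9.15 in 1 week cold and 10.47, 10.48 and 10.62 in 1 week control (-0.95, adjusted p = 0.000478). It had 9.85, 9.76 and 9.63 in 5 week cold and 10.51, 10.43 and 10.53 in 5 week control (-0.74, adjusted p = 0.00328), and the groups were apart at both times. Ccl24, the second eotaxin, gave 6.33, 6.67 and 6.30 in 1 week cold and 7.57, 7.50 and 7.38 in 1 week control (-1.05, SE 0.25, adjusted p = 0.0053). It gave 6.90, 5.68 and 6.29 in 5 week cold and 7.76, 7.54 and 7.19 in 5 week control (-1.20, SE 0.25, adjusted p = 0.00367). Both eotaxins therefore fell at both times, while the signal of their receptor gene Ccr3 stayed under 2.32 on every array and was not tested.

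**Figure D2:**
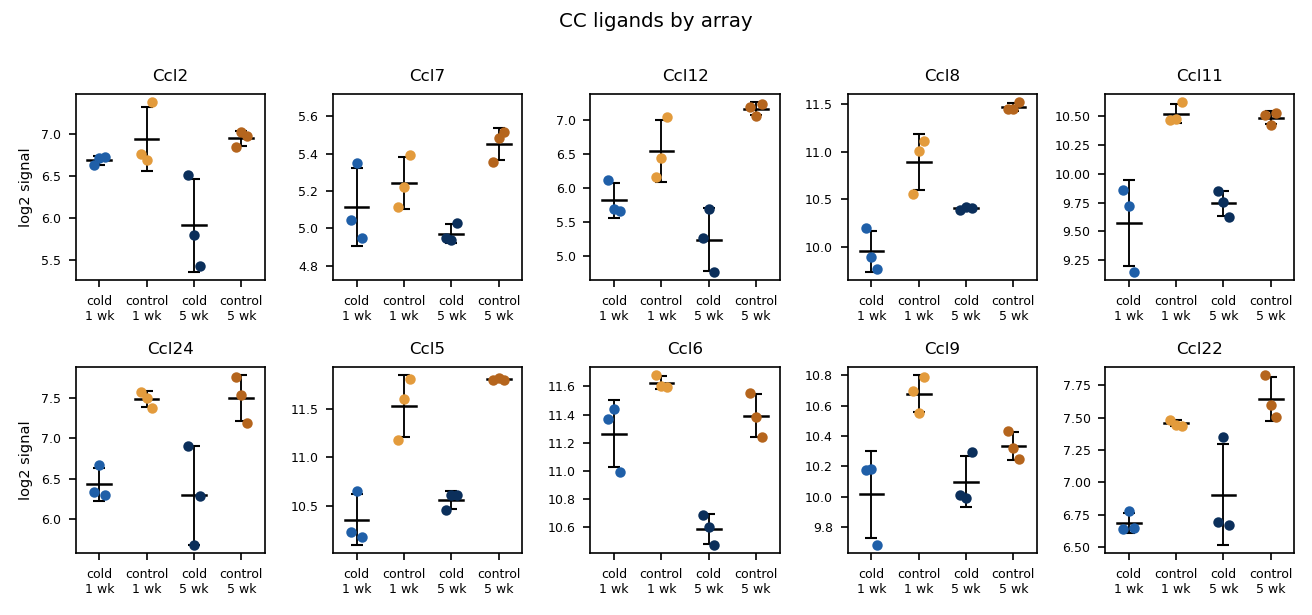
log2 signal of 10 CC ligands in each array (points), with group mean and SD (bars), n = 3 per group. Each panel has its own axis. Cold points lie below control points at both times for Ccl12, Ccl8, Ccl11, Ccl24, Ccl5, Ccl6 and Ccl22, and only at 5 weeks for Ccl2 and Ccl7.

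The bases before the gene starts are shown for the called members with the largest changes that have a RefSeq entry, among them neighbours of the cluster. Entries were found for 29 of the 38 tested genes, and each line gives the 250 bases before the annotated start on GRCm38.p6, with matches to TATAAA on the gene's strand in capitals. Ccl12 (chr11:82101595-82101844, plus strand) and Ccl8 (chr11:82114935-82115184, plus strand) hold the match 31 and 32 bases before the start. Ackr4 (chr9:104126644-104126893, minus strand) holds one 185 bases before its start, and Cxcl12 (chr6:117168285-117168534, plus strand), Cxcr6 (chr9:123806227-123806476, plus strand) and Ccr2 (chr9:124101933-124102182, plus strand) hold none.
Ccl12: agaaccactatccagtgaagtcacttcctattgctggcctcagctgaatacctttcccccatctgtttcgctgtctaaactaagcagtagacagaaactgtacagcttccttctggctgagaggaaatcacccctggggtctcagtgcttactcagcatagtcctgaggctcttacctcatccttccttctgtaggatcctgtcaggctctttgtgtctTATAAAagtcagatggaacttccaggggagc
Ccl8: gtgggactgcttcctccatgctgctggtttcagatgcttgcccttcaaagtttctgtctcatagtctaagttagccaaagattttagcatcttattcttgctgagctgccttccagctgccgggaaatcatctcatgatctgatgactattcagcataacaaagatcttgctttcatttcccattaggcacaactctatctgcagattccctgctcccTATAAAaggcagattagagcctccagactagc
Ackr4: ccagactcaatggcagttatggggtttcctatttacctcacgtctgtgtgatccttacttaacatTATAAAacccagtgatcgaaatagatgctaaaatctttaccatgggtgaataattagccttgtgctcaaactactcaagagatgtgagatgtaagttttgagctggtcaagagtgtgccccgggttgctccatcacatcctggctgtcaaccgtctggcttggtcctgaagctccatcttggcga
Cxcl12: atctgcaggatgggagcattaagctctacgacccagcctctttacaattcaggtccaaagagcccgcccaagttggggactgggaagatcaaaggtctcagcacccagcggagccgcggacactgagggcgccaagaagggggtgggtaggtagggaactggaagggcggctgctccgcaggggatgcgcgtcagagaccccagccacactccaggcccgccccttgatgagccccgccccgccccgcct
Cxcr6: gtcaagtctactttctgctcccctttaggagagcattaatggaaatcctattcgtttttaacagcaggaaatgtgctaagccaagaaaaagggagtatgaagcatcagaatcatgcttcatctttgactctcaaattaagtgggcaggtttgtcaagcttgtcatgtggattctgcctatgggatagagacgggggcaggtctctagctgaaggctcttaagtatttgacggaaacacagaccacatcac
Ccr2: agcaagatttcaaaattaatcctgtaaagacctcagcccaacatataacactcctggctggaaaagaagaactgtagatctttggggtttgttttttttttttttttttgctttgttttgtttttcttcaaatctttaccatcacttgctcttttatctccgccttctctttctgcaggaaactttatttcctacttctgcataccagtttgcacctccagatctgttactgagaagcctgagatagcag

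The window of Cxcl12 is rich in G and C (64.4%, with 14 CG pairs), against 48.4% and 1 for Ccl12, 44.8% and 1 for Ccl8, 45.2% and 5 for Ackr4, 43.6% and 3 for Cxcr6 and 37.2% and 1 for Ccr2, and a median of 52.4% over all windows. TATAAA occurs for 10 of the 29 member genes and in 7.6% of 32817 windows of all genes. Member counts here are by gene, with a match in any window of that gene, and percentages are by window. The units differ, so the 2 are not directly comparable. On either strand TGANTCA, the AP-1 core, occurs in 3 (Ccl27a, Ccl9 and Cxcl10) and in 6.75%, and TTCNNNGAA, the STAT core, in 2 (Ccr6 and Cxcl14) and in 7.01%. A core of NF-kB sites occurs in 2 (Ccl9 and Cxcl1) and in 1.41% of all windows, and a core of the interferon-stimulated response element in 2 (Cxcl10 and Cxcl14) and in 2.97%. A match is a description of these letters and not a site.

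The macrophage ligands form a second cluster on chromosome 11, in the order Ccl5, Ccl9, Ccl6, Ccl3 and Ccl4. Ccl5 (RANTES), an attractant of T cells and monocytes, had 10.23, 10.66 and 10.18 in 1 week cold against 11.18, 11.60 and 11.80 in 1 week control, 2.25-fold lower (-1.17, SE 0.16, adjusted p = 0.000154). Its 5 week arrays read 10.45, 10.61 and 10.61 in cold against 11.80, 11.82 and 11.79 in control, 2.37-fold lower (-1.25, SE 0.16, adjusted p = 0.000164). With the Actb value in the fit its 5 week fall was -1.32 (adjusted p = 0.0505). Ccl6, made by myeloid cells in mice, had 11.37, 11.44 and 10.99 in 1 week cold and 11.68, 11.61 and 11.60 in 1 week control (-0.36, adjusted p = 0.0307). It had 10.69, 10.60 and 10.47 in 5 week cold and 11.55, 11.38 and 11.24 in 5 week control (-0.81, adjusted p = 0.000552). A fainter Ccl6 probe set gave -0.20 and -0.23 and was not called at either time.

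Ccl9, a mouse ligand of Ccr1, had 10.18, 10.18 and 9.68 in 1 week cold and 10.70, 10.55 and 10.79 in 1 week control (-0.67, adjusted p = 0.0026). Its 5 week values were 10.01, 9.99 and 10.29 in cold and 10.43, 10.32 and 10.25 in control, which overlapped (-0.23, adjusted p = 0.226). Its other probe set showed the opposite timing, with -0.17 (adjusted p = 0.453) at 1 week and -1.07 (adjusted p = 0.00116) at 5 weeks, so the time at which Ccl9 fell depended on the probe set. Ccl3 and Ccl4, the macrophage inflammatory proteins, were not tested, and Ccl3 passed log2 4 on 1 array only. Ccl22, which macrophages and dendritic cells make for Ccr4, had 6.64, 6.78 and 6.64 in 1 week cold and 7.48, 7.45 and 7.44 in 1 week control (-0.77, adjusted p = 0.0024). It had 6.69, 7.35 and 6.67 in 5 week cold and 7.83, 7.60 and 7.50 in 5 week control (-0.74, adjusted p = 0.00453), without overlap at either time, and the 5 week value was -0.19 (adjusted p = 0.742) with the Actb value in the fit.

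Among the CXC ligands, Cxcl9, an interferon-induced attractant of T cells, had 9.09, 9.46 and 9.38 in 1 week cold and 9.73, 9.70 and 10.76 in 1 week control (-0.75, adjusted p = 0.0224), with 1 control array well above the other two. Without that array, control_1wk 3, its value was -0.40, the smallest of the fits that left out 1 array, and without cold_1wk 1 it was no longer called. At 5 weeks its signals overlapped, at 9.83, 9.81 and 10.06 in cold and 9.87, 9.86 and 10.12 in control (-0.05, adjusted p = 0.892). The related Cxcl10 was not called at either time (-0.58 and -0.13), and the same control array stood at 9.09 for it, with the other 11 arrays between 7.37 and 7.90. The receptor of both, Cxcr3, fell at both times. It had 7.14, 7.44 and 7.30 in 1 week cold and 7.60, 7.52 and 7.97 in 1 week control (-0.40, adjusted p = 0.0364), and 7.09, 7.30 and 7.18 in 5 week cold and 7.84, 8.27 and 8.04 in 5 week control (-0.86, adjusted p = 0.000886).

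Cxcl16 is a membrane-bound ligand made by macrophages and dendritic cells, and Cxcr6, found on T and NKT cells, is its only known receptor. Both were called lower at both times on their brightest probe sets. Cxcl16 had 7.85, 7.90 and 7.07 in 1 week cold against 8.50, 8.90 and 9.25 in 1 week control, 2.43-fold lower (-1.28, SE 0.22, adjusted p = 0.000752). At 5 weeks it had 7.86, 7.96 and 7.77 in cold against 8.94, 9.20 and 9.05 in control (-1.20, SE 0.22, adjusted p = 0.00172). Its other probe set gave -0.54 (adjusted p = 0.0628) and -0.77 (adjusted p = 0.0192). Cxcr6 had 7.25, 7.40 and 7.13 in 1 week cold against 8.07, 8.53 and 8.81 in 1 week control (-1.21, SE 0.19, adjusted p = 0.000399). It had 7.73, 7.24 and 7.13 in 5 week cold against 8.47, 8.43 and 8.61 in 5 week control (-1.14, SE 0.19, adjusted p = 0.000908). Its other probe set gave -1.62 and -1.40, both called.

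Cxcl12, which stromal cells make to hold progenitors and lymphocytes in place, showed the smallest adjusted p of the ligands at both times. It had 10.51, 10.73 and 10.41 in 1 week cold against 11.65, 11.82 and 11.85 in 1 week control, 2.33-fold lower (-1.22, SE 0.10, adjusted p = 5.64e-06). Its 5 week arrays read 10.84, 10.92 and 10.96 in cold against 11.69, 11.75 and 11.68 in control (-0.80, SE 0.10, adjusted p = 0.000111). The other Cxcl12 probe set did not follow: it gave 0.43 (adjusted p = 0.00622) at 1 week and 0.06 (adjusted p = 0.695) at 5 weeks. Its arrays read 10.25, 10.07 and 10.21 in 1 week cold against 9.64, 9.89 and 9.73 in 1 week control, and 9.99, 10.10 and 9.85 in 5 week cold against 9.82, 9.97 and 9.97 in 5 week control. The direction of Cxcl12 at 1 week thus differed between its probe sets, and their mean gave -0.40 at 1 week and -0.37 at 5 weeks, both called.

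The receptors of Cxcl12 did not pass. Cxcr4 gave -0.35 (adjusted p = 0.509) and -0.95 (adjusted p = 0.0985), with 5 week values of 4.52, 6.18 and 6.44 in cold and 6.90, 6.87 and 6.23 in control. Of the fits that left out 1 array, 5 did not call it at 5 weeks, and that without cold_5wk 3 did. Its 5 week value over these fits ranged from -1.32 to -0.36. Ackr3, the scavenging receptor of Cxcl12, gave 0.20 (adjusted p = 0.353) and 0.44 (adjusted p = 0.0664). Its 5 week arrays read 11.06, 11.25 and 11.24 in cold and 10.67, 10.82 and 10.74 in control, so all cold arrays lay above the controls. Cxcl14, made by epithelial and stromal cells, gave -0.15 and -0.22 without a call, but its other probe set gave 1.01 at 1 week (adjusted p = 0.0155).

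**Figure D3:**
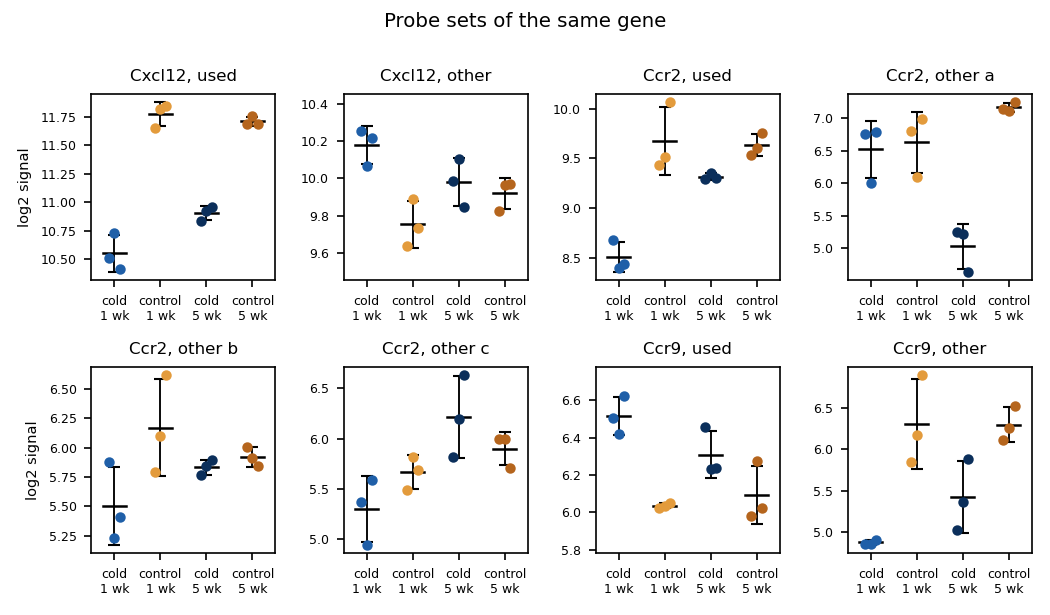
log2 signal in each array (points) for the probe sets of Cxcl12, Ccr2 and Ccr9, with group mean and SD (bars), n = 3 per group. The probe set used for each gene is the one with the highest mean over the 12 arrays, and the others a, b and c are the further Ccr2 probe sets. Cold lies below control for the used Cxcl12 set at 1 week and above it for the other, and the Ccr2 sets differ in the time at which cold lies below.

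Cxcl13 and Cxcr5, and Ccr7 with both of its ligands, were lower in the cold at both times. Cxcl13, which calls B cells into follicles, had 10.46, 10.54 and 10.46 in 1 week cold against 11.32, 11.68 and 11.51 in 1 week control (-1.02, SE 0.11, adjusted p = 3e-05). At 5 weeks it had 10.80, 10.91 and 10.97 in cold against 11.55, 11.34 and 11.60 in control (-0.60, SE 0.11, adjusted p = 0.00123). Its other probe set also fell at both times (-0.50, adjusted p = 0.0323, and -1.27, adjusted p = 0.000311), so both agreed in direction and differed in which time was lower. Cxcr5, the Cxcl13 receptor of B cells, had 6.68, 7.13 and 6.58 in 1 week cold and 7.30, 7.27 and 7.70 in 1 week control (-0.62, adjusted p = 0.011). It had 6.35, 6.67 and 6.20 in 5 week cold and 7.70, 7.81 and 7.56 in 5 week control, 2.44-fold lower (-1.28, SE 0.17, adjusted p = 0.000221). The groups did not overlap at either time.

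Ccr7, the receptor that brings T cells and dendritic cells to lymph nodes, had 8.49, 8.89 and 8.65 in 1 week cold against 9.27, 9.55 and 9.84 in 1 week control (-0.88, SE 0.14, adjusted p = 0.00049). Its 5 week arrays read 8.29, 8.36 and 8.37 in cold against 9.89, 9.67 and 9.74 in control, 2.69-fold lower (-1.43, SE 0.14, adjusted p = 3.33e-05). The difference between the times did not pass for Ccr7 (-0.55, adjusted p = 0.0771) or Cxcr5 (-0.66, adjusted p = 0.0781). The ligands of Ccr7, Ccl19 and Ccl21, are measured by probe sets that name several gene copies and so were not members, and they were fitted among all probe sets. The Ccl21 probe set had 11.74, 12.22 and 11.92 in 1 week cold and 12.56, 12.82 and 12.97 in 1 week control (-0.82, adjusted p = 0.000719), and 11.33, 11.54 and 11.45 in 5 week cold and 12.77, 12.82 and 12.74 in 5 week control (-1.34, adjusted p = 6.04e-05). The Ccl19 probe set had 9.06, 9.62 and 9.16 in 1 week cold and 9.83, 10.23 and 10.61 in 1 week control (-0.94, adjusted p = 0.0022), and 9.04, 8.93 and 9.10 in 5 week cold and 10.70, 10.79 and 10.73 in 5 week control (-1.72, adjusted p = 9.69e-05). The cold and control arrays did not overlap for either ligand.

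**Figure D4:**
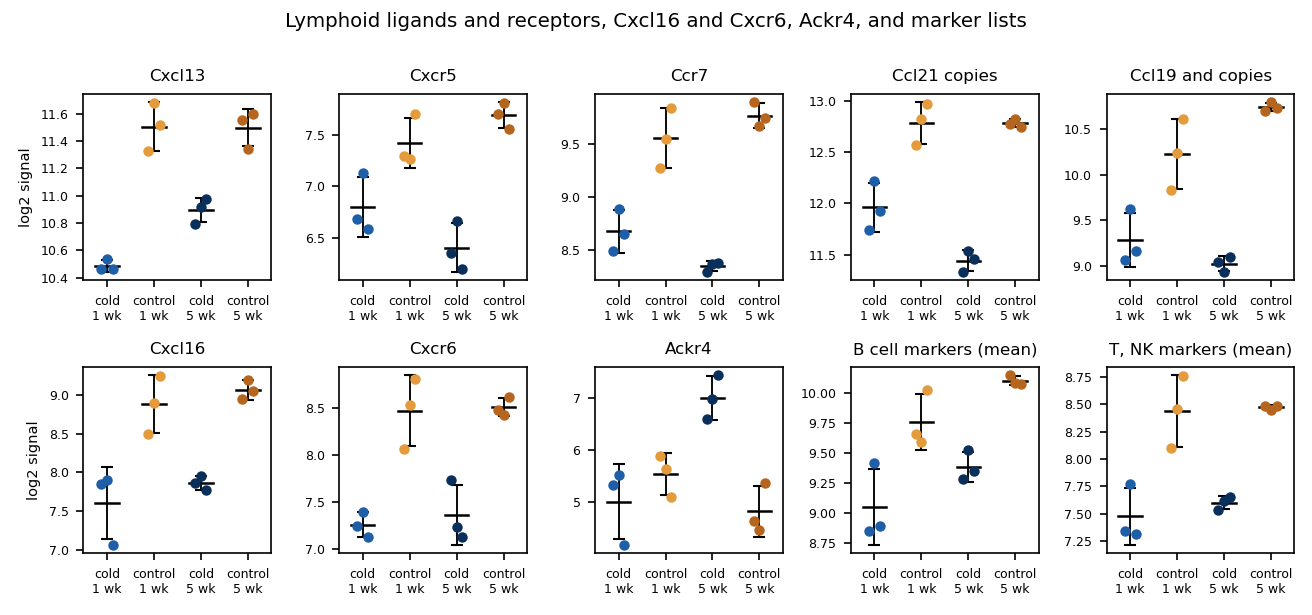
log2 signal in each array (points) of lymphoid ligands and receptors, of Cxcl16 and Cxcr6 and of Ackr4, and the mean log2 signal per array of the tested B cell and T and NK cell markers, with group mean and SD (bars), n = 3 per group. Each panel has its own axis. Cold lies below control at both times in every panel except Ackr4, where it lies above at 5 weeks only.

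Ccr6, which B cells and some T cells carry, had 7.94, 8.01 and 7.77 in 5 week cold and 8.71, 8.66 and 8.99 in 5 week control (-0.88, SE 0.19, adjusted p = 0.0047). At 1 week it had 7.58, 7.37 and 8.06 in cold and 7.92, 8.12 and 7.48 in control, which overlapped (-0.17, adjusted p = 0.493). It was the single member that differed between the controls of the 2 times, being higher at 5 weeks than at 1 week by 0.95 (adjusted p = 0.0298), where 2.55% of all tested genes differed, 1.28% higher and 1.27% lower. That call was lost without control_1wk 3 and without any 1 of the 5 week controls. Between the cold groups the 5 week arrays were not called against the 1 week arrays (0.23, adjusted p = 0.395). Its ligand Ccl20 was not tested.

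Ccr2, the receptor for Ccl2, Ccl7 and Ccl12 on monocytes, was measured by 4 probe sets that did not give 1 answer. On the brightest it had 8.68, 8.40 and 8.44 in 1 week cold against 9.44, 9.52 and 10.07 in 1 week control, 2.24-fold lower (-1.17, SE 0.15, adjusted p = 0.000105). Its 5 week arrays read 9.29, 9.35 and 9.30 in cold against 9.54, 9.61 and 9.75 in control (-0.32, adjusted p = 0.119), and the difference between times was 0.85 (adjusted p = 0.0197). A second probe set had the opposite timing, with -0.11 (adjusted p = 0.754) at 1 week and -2.14 (adjusted p = 0.000226) at 5 weeks. Its arrays read 5.25, 5.21 and 4.64 in 5 week cold and 7.15, 7.11 and 7.24 in 5 week control. Of the remaining probe sets, 1 gave -0.66 (adjusted p = 0.0201) and -0.09, and the other -0.37 and 0.32 without a call. At 1 week all 4 were below 0, and at 5 weeks 3 of 4 were.

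Of the other receptors of myeloid cells, Ccr1 gave -0.79 (adjusted p = 0.0666) and -0.25 (adjusted p = 0.58). Cx3cr1 gave -0.14 and -0.13 and Cxcr2, the receptor of neutrophils for Cxcl1, gave -0.09 and -0.08, none of them called. Cxcr2 lay between 5.65 and 5.95 on all arrays, with overlap of cold and control at both times. Cx3cl1, the fractalkine ligand of Cx3cr1 that endothelium makes, had 5.31, 5.85 and 5.41 in 1 week cold and 5.07, 5.01 and 5.06 in 1 week control and rose (0.48, SE 0.13, adjusted p = 0.0112). At 5 weeks it had 5.46, 5.20 and 5.30 in cold and 5.60, 5.35 and 5.46 in control (-0.15, adjusted p = 0.413), and the 2 effects differed (-0.63, adjusted p = 0.039). Its other tested probe set gave 0.09 and 0.07 without a call.

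Ackr4 showed the largest rise. This atypical receptor takes up Ccl19, Ccl21 and Ccl25 without signalling through G proteins. It had 6.59, 6.98 and 7.43 in 5 week cold against 4.64, 4.46 and 5.37 in 5 week control, a 4.53-fold rise (log2 2.18, SE 0.37, adjusted p = 0.000945, limma). With the Actb value in the fit the rise was 1.05 (adjusted p = 0.393). At 1 week it had 5.32, 5.51 and 4.18 in cold and 5.89, 5.63 and 5.10 in control, with overlap (-0.54, adjusted p = 0.243), and the 2 effects differed by 2.72 (SE 0.52, adjusted p = 0.00817). A second Ackr4 probe set had 5.00, 4.87 and 5.35 in 5 week cold and 2.84, 2.84 and 2.96 in 5 week control. With signals under log2 4 set to 4 that is at least 2.11-fold higher. The limma fit of this set (adjusted p = 0.000864) used the deposited signals, without that bound. Within cold, 5 weeks exceeded 1 week by 2.00 (adjusted p = 0.00331). Ackr1, which red cells and venules carry, gave -0.06 and -0.40, and Ackr2, a scavenger of inflammatory CC ligands, -0.19 and -0.05, none called.

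The remaining rises were small. Ccl27a, a ligand of skin-homing T cells, had 7.82, 8.19 and 7.82 in 1 week cold and 7.56, 6.95 and 6.81 in 1 week control (0.84, SE 0.19, adjusted p = 0.00391). It had 7.27, 7.16 and 7.33 in 5 week cold and 6.29, 6.67 and 6.75 in 5 week control (0.68, adjusted p = 0.0165), without overlap at either time. Of 2 probe sets that name Ccl27a with its copies, 1 gave 1.00 (adjusted p = 0.000214) and 0.19 (adjusted p = 0.316) and the other 0.56 (adjusted p = 0.00751) and 0.68 (adjusted p = 0.00401). Ccl25, a ligand of Ccr9 in gut and thymus, had 5.10, 5.35 and 5.11 in 5 week cold and 4.91, 4.93 and 4.73 in 5 week control (0.33, adjusted p = 0.0429), and 5.05, 5.39 and 5.08 in 1 week cold and 4.93, 4.83 and 4.97 in 1 week control (0.26, adjusted p = 0.0758). Each of the 6 fits that left out 1 array ended its call (0.24 to 0.37). Ccr9 had 6.51, 6.42 and 6.63 in 1 week cold and 6.02, 6.03 and 6.05 in 1 week control (0.48, adjusted p = 0.00237), and 6.46, 6.23 and 6.24 in 5 week cold and 5.98, 6.27 and 6.03 in 5 week control (0.22, adjusted p = 0.119). Another Ccr9 probe set gave 0.39 and 0.45, both called, and the last fell, with -1.43 (adjusted p = 0.00139) and -0.87 (adjusted p = 0.0269), so the direction of Ccr9 depended on the probe set.

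The other tested ligands did not pass. Ccl28, a mucosal ligand, gave 0.17 and 0.10, Xcl1, which activated T and NK cells make, -0.15 and -0.27, and Cxcl1, a neutrophil attractant, 0.06 and -0.12. Cxcl17, a mucosal ligand, gave 0.52 and 0.79, with 5 week signals of 4.47, 5.23 and 4.05 in cold and 3.71, 3.79 and 3.90 in control. The 15 members that were not tested were Ccl1, Ccl3, Ccl4, Ccl17, Ccl20, Cxcl2, Cxcl3, Cxcl5, Cxcl11, Cxcl15, Ccr3, Ccr4, Ccr8, Ccr10 and Xcr1. At 1 week the 3 cold arrays lay above the 3 control arrays in 13 of these 15, all but Ccl1 and Ccl3. At 5 weeks they did so in 13, all but Ccl1 and Xcr1. Among all tested genes that share was 26% and 28.3%, and it was not computed for the other genes below the filter. Cold minus control lay between -0.39 and 0.39 at 1 week and between -0.06 and 0.29 at 5 weeks. These dim signals were thus slightly higher on the cold arrays, by a median of 0.07 at 1 week and 0.05 at 5 weeks, and the part of that offset in the small rises of Ccl25, Ccr9 and Cx3cl1 was not tested.

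Markers of the leukocytes that make or carry these proteins moved with them. For comparison, 31.6% of all tested genes fell and 17.9% rose at 1 week, and 21.2% fell and 15% rose at 5 weeks. Of 19 tested macrophage and monocyte markers 15 fell and none rose at each time (median -0.72 and -0.73), and the mean signal of the list was 9.05 to 9.22 in 1 week cold against 9.78 to 9.90 in 1 week control, and 9.06 to 9.17 in 5 week cold against 9.84 to 9.86 in 5 week control. Of 17 T and NK cell markers 15 and 13 fell (median -0.90 and -0.83). Their mean was 7.31 to 7.78 in 1 week cold and 8.10 to 8.76 in 1 week control, and 7.53 to 7.66 in 5 week cold and 8.45 to 8.49 in 5 week control. Of 13 B cell markers 11 and 9 fell, with means of 8.85 to 9.42 in 1 week cold and 9.59 to 10.02 in 1 week control, and of 9.28 to 9.52 in 5 week cold and 10.07 to 10.15 in 5 week control. No marker of the 3 lists rose at either time. Of 10 dendritic cell markers 8 and 6 fell, with means of 8.76 to 9.12 in 1 week cold and 9.34 to 9.67 in 1 week control, and of 8.92 to 9.09 in 5 week cold and 9.56 to 9.59 in 5 week control. The part of these cell types in the falls of the chemokine genes was not tested.

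Other cell types were followed in the same way. The shares of all tested genes were 31.6% lower and 17.9% higher at 1 week, and 21.2% lower and 15% higher at 5 weeks. Several of the counts below lie near these shares. Of 9 lymph node stroma and high endothelial venule markers 5 fell and 1 rose at 1 week and 3 fell at 5 weeks, with means of 7.23 to 7.51 in 1 week cold and 7.71 to 7.88 in 1 week control, and of 7.10 to 7.46 in 5 week cold and 7.67 to 7.82 in 5 week control. Of 11 fibroblast and progenitor markers 9 fell at each time, with means of 10.38 to 10.71 in 1 week cold and 11.16 to 11.26 in 1 week control, and of 10.31 to 10.51 in 5 week cold and 10.81 to 10.97 in 5 week control. Of 12 neutrophil and mast cell markers 5 and 7 fell, with means of 6.07 to 6.43 in 1 week cold and 6.91 to 7.16 in 1 week control, and of 6.45 to 6.61 in 5 week cold and 7.05 to 7.17 in 5 week control. Of 5 lymphatic endothelial markers 4 fell at 1 week and 1 at 5 weeks, with means of 7.51 to 7.83 in 1 week cold and 8.23 to 8.32 in 1 week control, and of 7.96 to 8.17 in 5 week cold and 8.24 to 8.30 in 5 week control. The part of these cells in the falls was not tested either. Of 14 blood endothelial markers 5 rose and 1 fell at 1 week, and 1 rose and 4 fell at 5 weeks. All 12 brown and beige adipocyte markers rose at both times (medians 3.86 and 3.63), and of 11 white adipocyte markers 4 rose and 4 fell at 1 week and 1 rose and 3 fell at 5 weeks. Of 12 skeletal muscle markers 1 rose at 1 week and 9 fell at 5 weeks, with means of 4.81 to 9.65 in 1 week cold, 4.93 to 5.54 in 1 week control, 4.53 to 4.72 in 5 week cold and 8.27 to 8.59 in 5 week control. The 9.65 was on cold_1wk 2 only, with 4.81 and 4.98 on the other arrays of that group. All 5 week controls were thus above every 1 week control, and the part of muscle RNA in the 5 week comparison was not tested.

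Inside the responding cells the signal passes through G proteins, arrestins and small GTPases. Of 52 tested genes of chemokine signal transduction 27 fell and 2 rose at 1 week, and 28 fell and 3 rose at 5 weeks (median -0.41 at each). Among all tested genes 31.6% fell and 17.9% rose at 1 week, and 21.2% fell and 15% rose at 5 weeks. The GTPase exchange factor Vav3 fell at 1 week (log2 -1.80), as did the NF-kB inhibitor Nfkbia (-1.09), the exchange factor Tiam1 (-0.99) and the G protein subunit Gnai3 (-0.86). At 5 weeks the haematopoietic GTPase Rac2 fell (log2 -1.75), as did Vav1 (-1.72) and the arrestins Arrb2 (-1.03) and Arrb1 (-1.01). Of the receptor kinases, Grk3 rose by 1.21 at 1 week and 1.46 at 5 weeks and Grk5 by 0.96 and 0.50. Grk2, another receptor kinase of the list, was not tested. Ikbkg rose by 0.33 at 5 weeks. These genes were named at each time by the smallest adjusted p, so one named at 1 time can also have been called at the other.

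Of 22 tested upstream inducers, cytokines, their receptors and transcription factors that switch chemokine genes on, 11 fell and 2 rose at 1 week and 13 fell and 1 rose at 5 weeks. Il33, an alarmin of stromal cells, fell at 1 week (log2 -1.81), as did the tumour necrosis factor receptor Tnfrsf1b (-0.98) and the pattern receptors Tlr4 (-0.92) and Tlr2 (-0.80). At 5 weeks the noncanonical NF-kB subunits Nfkb2 (-1.61) and Relb (-1.58) fell, as did Irf1 (-0.56) and Lta (-0.56). Cebpb, a factor of inflammation and of fat cell differentiation, rose by 1.85 and 1.15, and the lymphotoxin receptor Ltbr by 0.37 at 1 week. At 5 weeks Ltbr was called lower (-0.51, adjusted p = 0.00835, limma), and its effects at the 2 times differed (-0.88, adjusted p = 0.00937). Of 18 attractant genes outside the named families 11 fell and 1 rose at 1 week and 12 fell at 5 weeks. For both lists the shares of all tested genes were 31.6% lower and 17.9% higher at 1 week, and 21.2% lower and 15% higher at 5 weeks. Rarres2, the chemerin gene, fell at both times (-0.96 and -1.10). The prostaglandin receptor Ptger4 (-0.90), Cklf (-0.98) and Cmtm6 (-0.62) fell at 1 week, and the macrophage growth factor Csf1 (-1.05), the lymphocyte egress receptor S1pr1 (-0.77) and Cd74 (-0.77) at 5 weeks. Cd74 also fell at 1 week (-0.60). Genes of both lists were named at each time by the smallest adjusted p. A gene named at only 1 time can also have been called at the other. C5ar1 rose by 0.40 at 1 week.

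The difference between the 5 week and the 1 week cold effect was called for 4 of the 38 members, 2 higher (Ackr4 and Ccr2) and 2 lower (Ccl12 and Cx3cl1), where 19.8% of all tested genes were called, 11.5% higher and 8.38% lower. None of the 4 calls was kept with the Gapdh or the Actb 3' minus 5' value in the fit. For Ackr4 the Gapdh value in the fit gave 2.58 (adjusted p = 0.341, limma) and the Actb value 1.49 (adjusted p = 0.674). Leaving out the 3 arrays with the highest Gapdh values gave 2.85 for Ackr4, with control_1wk 1 alone in its group. Between the cold groups 8 members differed, 5 higher and 3 lower, against 27.5% of all tested genes, 15.4% higher and 12% lower. At 5 weeks relative to 1 week Ackr4, Ccr2 (0.81), Ccl8 (0.45), Cxcl13 (0.41) and Cxcl12 (0.35) were higher, and Ccl2 (-0.77), Ccl27a (-0.69) and Ccl6 (-0.68) were lower. Other probe sets went the other way for Ccr2 (-1.49, adjusted p = 0.00299) and Cxcl13 (-0.88, adjusted p = 0.00394), while a further Ccr2 set gave 0.91 (adjusted p = 0.0101), and the other Cxcl12 and Ccl6 sets gave -0.20 and -0.01 without a call. None of the 8 was called with the Actb value in the fit. These comparisons share arrays with the cold effects given above.

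The number of calls varied with the way RNA quality was treated. With the Gapdh 3' minus 5' value of each array in the fit, 11 of the 20 calls at 1 week were kept, and without control_1wk 2, control_1wk 3 and cold_5wk 3, an alternative chosen after seeing the data, 10 were kept. Of 8 members that lost the call under both, the values stayed close to the original for Ccl24 (-0.93 and -1.14, from -1.05), Ccl6 (-0.45 and -0.42, from -0.36), Cx3cl1 (0.53 and 0.46, from 0.48), Cxcr3 (-0.34 and -0.30, from -0.40) and Cxcr5 (-0.68 and -0.50, from -0.62). They were smaller for Cxcl9 (-0.37 and -0.42, from -0.75) and Ccl27a (0.63 and 0.38, from 0.84), and for Ccl12 they were -0.88 and -0.34, from -0.73. At 5 weeks 19 of 20 calls were kept under each of these, but 3 with the Actb value in the fit. Since the Actb value separates the 5 week groups, its part and that of cold are hard to tell apart in that fit, and its part was not tested otherwise. The Gapdh value separates cold from control at both times, so the same limit holds for the fits with it. The members called at 1 week in every alternative tried were Ccl5, Ccl8, Ccl11, Ccl22, Cxcl12, Cxcl13, Ccr2, Ccr7 and Cxcr6. At 5 weeks they were Ccl8, Cxcl12 and Ccr7. No alternative replaced the brightest probe set of a gene by another, apart from the mean of all its probe sets. The other Cxcl12 set gave 0.43 (adjusted p = 0.00622, limma) at 1 week and 0.06 at 5 weeks. Of the other Ccr2 sets, those with -0.11 and -0.37 at 1 week were not called and that with -0.66 was. The other sets of Cxcl13 and Cxcr6 were called lower at 1 week. The 3 control arrays of 5 weeks were more alike than those of other groups (mean r 0.997 to 0.998, against 0.992 to 0.996), and with them averaged and counted as 1 array, 11 of 20 calls at 5 weeks were kept.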

How the data were processed

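White adipose tissue RNA of 12 samples (5 µg, biotin label) was hybridised to 1 Affymetrix array each, in 4 groups of 3. The deposited values are log2 signals that the authors made with GCRMA, per the submitters' processing notes, with version and settings not given in the sources used here. Of 45101 probe sets, 64 controls were left out, 34958 named 1 gene, 932 several and 9211 none in the platform annotation. Each of 18193 genes was represented by its brightest probe set, by mean signal of the 12 arrays, and 12855 genes above log2 4 on at least 3 arrays were tested. Group means were fitted with limma 3.58.1 in R 4.3.3 over all arrays, with Benjamini-Hochberg adjustment over all tested genes and a threshold of 0.05, and the fit was tested on simulated data. Other probe sets of a member were adjusted over all probe sets above the filter. With signals under 4 set to 4, folds of dim members are bounds.

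The members and lists were chosen with earlier results of these data known. Every member is named, with values by array for those called in cold against control at either time or in the difference of the 2, and from the signalling, inducer and attractant lists up to 4 called genes per direction and time. Sequences are RefSeq promoter entries (GRCm38.p6), shown for called members with the largest changes that have an entry. Alternatives covered filters, scaling, probe set choice, left-out arrays, a replicate block and RNA quality. Leaving out the 3 arrays with high Gapdh 3' minus 5' values, the Actb 3' minus 5' value as a covariate and testing every probe set were added after seeing the data. The number of arrays limits the precision.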

Additional observations from a re-analysis of the deposited data

Results flagged for a closer look

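The effect of cold at 5 weeks differed from that at 1 week, by limma's test of the difference itself, for 4 members. For Ackr4 the 5 week effect exceeded the 1 week effect by 2.72 on the log2 scale (adjusted p = 0.00817), while its fainter probe set lay below log2 4 in the 5 week controls. For Ccl12, which has 1 tested probe set, the difference was -1.20 (adjusted p = 0.0385), and 8 of the 12 fits that left out 1 array ended the call. For Ccr2 it was 0.85 (adjusted p = 0.0197) on the brightest probe set and -2.03 (adjusted p = 0.00742) on another, so the direction depended on the probe set. For Cx3cl1 it was -0.63 (adjusted p = 0.039), and -0.01 without a call on its other probe set. None of the 4 calls was kept with Gapdh or with Actb 3' minus 5' values in the fit, and the part of RNA quality in them was not tested further.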

How the results depend on the processing

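Of the 20 members called at 1 week, settings other than RNA quality gave 16 to 21 (17 to 21 with 1 array left out), while the Gapdh covariate gave 11 and leaving out the 3 arrays with high Gapdh values gave 10. Over all genes the 6361 calls became 3035 and 3156. At 5 weeks 20 members were called and the alternatives gave 18 to 24, except 3 with the Actb covariate (795 calls over all genes) and 11 with the 5 week controls averaged and counted as 1, where the 4655 calls over all genes became 1608. The 4 members with different effects at the 2 times became 0 with those controls averaged, 0 with the Gapdh covariate, 0 without the 3 arrays, 0 with the Actb covariate, 2 with the mean of all probe sets and 1 to 6 with 1 array left out. Over all genes the 2551 calls became 1, 3, 160 and 0 under the first 4 of these. The 1 array left out gave 2 without cold_5wk 3, control_1wk 2, control_5wk 2 or control_5wk 3, and 1 without control_5wk 1. The 8 members that differed between cold groups became 3 with the Gapdh covariate, 0 with the Actb covariate (5 over all genes, from 3534) and 3 to 7 with 1 array left out, the lowest without cold_5wk 3, with 5 without cold_1wk 2 or cold_1wk 3. The single call between controls (Ccr6) became 0 with the averaged controls, either covariate, no filter, only the groups compared or without the 3 arrays, 2 with an intensity trend or quantile scaling, and 0 to 1 with 1 array left out. With the mean of its probe sets Ccr9 reversed at 1 week to -0.19 (adjusted p = 0.155), as its probe sets oppose each other. The replicate numbers did not pair the arrays (18 same-number pairs, r -0.11 to 0.18, 2 above 0.1). With the replicate block 19 members were called at 1 week, 20 at 5 weeks, 2 for the difference, 7 between cold groups and 0 between controls. The causes of these changes in count were not tested. Signals below log2 4 limit what can be said of the 15 members not tested.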
